A study of Homo sapiens with 6 samples.

Results

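BAX and BAK1, the pore-forming effectors of mitochondrial apoptosis, and the 8 BH3-only genes BID, BIK, BAD, BCL2L11, BBC3, PMAIP1, HRK and BMF were followed in A549 cells, a line derived from a human lung adenocarcinoma. These 10 genes were taken by symbol from the 18417 genes measured, and all 10 had exactly 1 probe set assigned to a single gene. Stable A549 cells labelled as carrying an H2AX knockdown (P1 in the labels, 3 arrays) were compared with control stable cells (C, 3 arrays). Both groups were starved of serum overnight and then kept in VP-16 for 48 h. VP-16 is another name for etoposide, a chemotherapy drug that poisons topoisomerase II and leaves double-strand breaks in the DNA. No untreated sample was analysed here, so no value below measures the response to the drug. The arrays of a group came from independent experiments, per the design text; how many stable lines stand behind each group, and how the knockdown was made, are not given in the sources used here. H2AX, a histone variant phosphorylated around DNA breaks, was not lower in the arrays that carry its knockdown label. Its log2 signal was 5.28, 5.17 and 5.49 in the knockdown-labelled arrays and 5.11, 5.27 and 5.26 in the control arrays (difference 0.10, 95% interval −0.25 to 0.45, limma adjusted p = 0.823). Every direction below is therefore that of the arrays labelled knockdown, not of a measured loss of H2AX.

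In the mitochondrial pathway of apoptosis, BAX and BAK1 oligomerise in the outer mitochondrial membrane and release cytochrome c, which starts caspase activation. Pro-survival proteins such as BCL2, BCL-XL (BCL2L1) and MCL1 hold them in check. BH3-only proteins share with them only the short BH3 helix, with which they occupy the groove of the pro-survival proteins or, in the case of BIM (BCL2L11), BID and PUMA (BBC3), also engage BAX and BAK1 directly. Several of them are controlled at the level of transcription by DNA damage or stress, PUMA and NOXA (PMAIP1) being the best known, while BID, BAD and BAX are controlled to a large degree on the protein, which arrays do not read.

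None of the 10 genes passed the threshold of an adjusted p under 0.05, against 0.0326% of all genes (limma, Benjamini-Hochberg over 18417 genes): 0 were lower, against 0.0271% of all genes, and 0 higher, against 0.00543%. At an unadjusted p under 0.05, 3 of the 10 were lower in the knockdown-labelled arrays, PMAIP1, BID and BAK1, against 8.38% of all genes, and 1 was higher, BIK, against 3.78%. These shares include dim genes. In a limma fit of only the 9209 genes at or above the median signal, 1422 had an unadjusted p under 0.05 in either direction. That fit kept 8 of the 10 genes, and 3 of these had such a p, all lower. The groups did not overlap for 4 of the 10, with PMAIP1, BID and BCL2L11 lower and BIK higher, while they did not overlap for 17% of all genes (9.82% lower and 7.17% higher). The difference was below 0 for 6 genes, against 51.5% of all genes, with a median of −0.17 over the 10 and of −0.01 over all genes. The share below 0 rose with mean signal. In the bins of mean signal that hold the 10 genes, described below, it was 51.3%, 66.1% and 85.3% of genes, from dim to bright. After quantile normalization the median over the 10 was 0.003 and after cyclic loess it was 0.02, so no common direction is given for them.

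Some features of the arrays bear on every value. On the mean of each group, bright genes read lower in the knockdown-labelled arrays and dim genes higher. Single arrays did not share this evenly. In the brightest bin, the median deviation from the control mean was −0.45, −0.15 and −0.13 on knockdown-labelled replicates 1, 2 and 3. On control replicates 1, 2 and 3 it was 0.14, −0.15 and 0.01, so control replicate 2 read like knockdown-labelled replicates 2 and 3. With genes in 5 bins of mean signal, the median difference was −0.25 in the brightest bin, which holds BAX, BID and HRK. It was −0.10 in the fourth, which holds BAK1, BAD, BBC3 and PMAIP1, and −0.01 in the middle bin, which holds BIK, BCL2L11 and BMF. In the dimmest bin it was 0.15 and in the next 0.07, and neither holds any of the 10 genes. Set against the median of its own bin, the difference was lower for 5 of the 10 genes and higher for the other 5. Knockdown-labelled replicate 1 stood apart, with an SD of all signals of 1.5997, against 1.71 to 1.86 on the other arrays. The SD was also smaller on every knockdown-labelled array than on every control array. It was 1.74 and 1.71 on knockdown-labelled replicates 2 and 3, and 1.86, 1.77 and 1.79 on control replicates 1, 2 and 3. Keratins and other markers of this epithelial line were bright, for example KRT8 (mean log2 signal 9.80) and KRT18 (8.56), though EPCAM was dim (2.50). The defining blood and endothelial markers PTPRC (2.13) and PECAM1 (3.04) were also dim, while CD68, a lysosomal protein of macrophages and other cells, was bright (8.70). Of 8 fibroblast markers all were above 0 and none passed the threshold. Their median difference was 0.29, and the median of their signal bins was 0.03. Their mean log2 signal was 3.28 to 3.66 in the knockdown-labelled arrays and 3.06 to 3.25 in the control arrays. In the other marker lists, 6 of 8 blood and immune, 4 of 5 endothelial, 2 of 6 alveolar type II and 2 of 10 epithelial markers were above 0. The part of the fibroblast markers in the results was not tested.

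**Figure D1:**
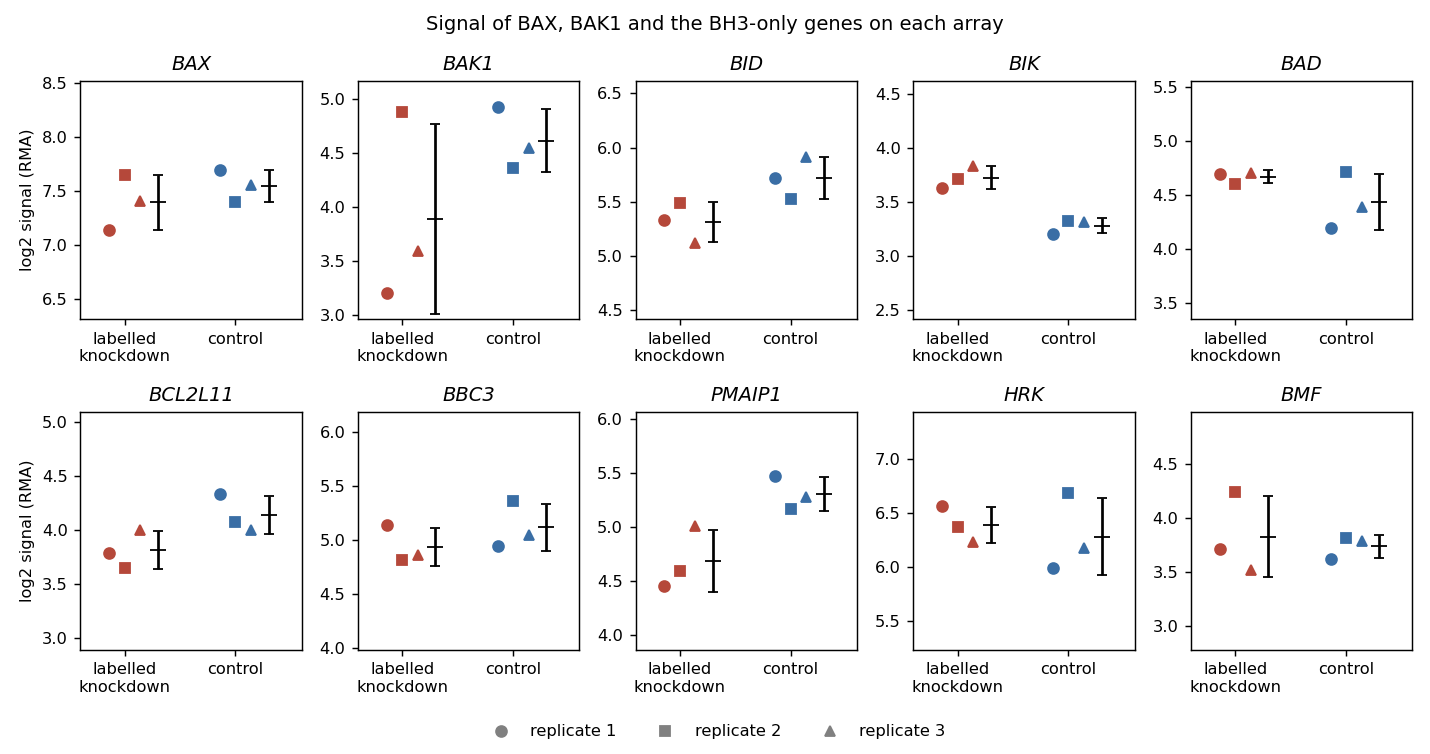
Log2 signal of each of the 10 genes on each array, with the knockdown-labelled arrays (red) left of the control arrays (blue), a symbol per replicate number, and the mean and SD over 3 arrays in black; every panel spans the same range of log2 units. PMAIP1, BID and BCL2L11 lie lower and BIK higher on all 3 knockdown-labelled arrays, and the BAK1 values of the knockdown-labelled arrays run from 3.20 to 4.88.

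RefSeq promoter windows, from 250 bases before to 50 bases after the transcription start, were matched by symbol for 9 of the 10 genes and not for BIK. They are shown for BAX and BAK1 and for BCL2L11 and PMAIP1, the 2 pairs among the 10 with the highest Pearson r over the 6 arrays of both groups. On deviations from the group means, BAX and BAK1 still had the highest r (0.93), but BBC3 with HRK (0.93), BAD with HRK (0.88) and BAD with BBC3 (0.82) came before BCL2L11 with PMAIP1 (0.78). The windows (GRCh38.p14) are chr19:48954625-48954924 on the plus strand for BAX, chr6:33580227-33580526 on the minus strand for BAK1, chr2:111120664-111120963 on the plus strand for BCL2L11 and chr18:59899746-59900045 on the plus strand for PMAIP1. Each is written 5′ to 3′ along its gene, and capitals mark any match, on either strand, to CACGTG (the E-box read by MYC and USF proteins), GGGCGG (the GC box of SP1), ACGTCA (part of the element read by CREB and ATF proteins) or CCAAT (the box of NF-Y).
BAX: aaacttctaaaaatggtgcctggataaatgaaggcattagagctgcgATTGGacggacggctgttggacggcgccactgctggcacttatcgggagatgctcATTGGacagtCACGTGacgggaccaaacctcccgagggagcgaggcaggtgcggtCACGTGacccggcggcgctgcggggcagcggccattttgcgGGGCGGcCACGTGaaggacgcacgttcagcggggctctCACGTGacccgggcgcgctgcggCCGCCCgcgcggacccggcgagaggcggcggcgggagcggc
BAK1: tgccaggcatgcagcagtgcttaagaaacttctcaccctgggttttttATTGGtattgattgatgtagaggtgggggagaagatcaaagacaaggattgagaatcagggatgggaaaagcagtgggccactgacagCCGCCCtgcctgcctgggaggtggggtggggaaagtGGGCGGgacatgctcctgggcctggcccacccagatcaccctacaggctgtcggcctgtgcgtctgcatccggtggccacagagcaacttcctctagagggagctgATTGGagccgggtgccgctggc
BCL2L11: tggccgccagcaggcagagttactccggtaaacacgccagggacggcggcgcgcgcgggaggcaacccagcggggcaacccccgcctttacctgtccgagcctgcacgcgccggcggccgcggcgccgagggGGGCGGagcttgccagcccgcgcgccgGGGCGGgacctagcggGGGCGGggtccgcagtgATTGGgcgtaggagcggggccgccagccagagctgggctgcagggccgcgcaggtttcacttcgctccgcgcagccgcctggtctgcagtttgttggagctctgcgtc
PMAIP1: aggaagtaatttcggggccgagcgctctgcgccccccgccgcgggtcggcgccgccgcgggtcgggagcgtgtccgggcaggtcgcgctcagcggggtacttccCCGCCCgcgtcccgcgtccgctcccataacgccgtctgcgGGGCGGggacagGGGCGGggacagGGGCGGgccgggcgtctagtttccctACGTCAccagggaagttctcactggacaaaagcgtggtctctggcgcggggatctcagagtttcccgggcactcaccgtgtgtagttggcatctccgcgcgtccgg

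The BAX window held CACGTG 4 times, at −138, −93, −45 and −14 from the start, a motif found at least once in 7.4% of 27305 promoter windows of the same length. The BAK1 window held none, and shared with BAX the GC box (2 matches in each) and the CCAAT box (2 in each), which 44.6% and 35.7% of all windows hold. The PMAIP1 window held 4 GC boxes and 1 ACGTCA, at −56, a motif present in 8.3% of windows. The BCL2L11 window held 3 GC boxes and 1 CCAAT box and no ACGTCA. Among the windows not printed, some of BID and that of BBC3 also held CACGTG, and those of BAD also held ACGTCA. No matches of different motifs overlapped in the printed windows, and a match describes the letters only. As the motifs were chosen after the sequences were seen, the shares cannot show that a match is unusual.

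The effectors differed from each other in their spread. BAX read 7.14, 7.65 and 7.41 in knockdown-labelled replicates 1, 2 and 3, against 7.70, 7.40 and 7.55 in the control arrays. The groups overlapped, and only knockdown-labelled replicate 1 lay below all controls. The difference was −0.15 ± 0.177 (SE; 95% interval −0.53 to 0.23, limma adjusted p = 0.745), which is smaller than the −0.25 of its signal bin, and it was above 0 after quantile normalization (0.075) and cyclic loess (0.12). It was −0.02 without knockdown-labelled replicate 1 and −0.28 without knockdown-labelled replicate 2. For any gene here, bulk RNA cannot tell a change in every cell from a change in the share of cells carrying the transcript.

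BAK1 read 3.20, 4.88 and 3.59 in knockdown-labelled replicates 1, 2 and 3, against 4.93, 4.36 and 4.55 in the control arrays. Knockdown-labelled replicates 1 and 3 lay below all controls, and replicate 2 lay close to the highest control. The SD over the knockdown-labelled arrays was 0.88, a value that 99.9% of all genes did not exceed, while the SD over the control arrays was 0.29. The difference of −0.72 ± 0.330 (SE) was the largest of the 10 in size and had the largest SE, with an interval of −1.43 to −0.01 (limma adjusted p = 0.409). It was −0.38 (adjusted p = 0.811) without knockdown-labelled replicate 1, and −1.21 (adjusted p = 0.174) without knockdown-labelled replicate 2, a change of more than 1.5 times either way. Without knockdown-labelled replicate 3, control replicates 1, 2 or 3 it was −0.57, −0.56, −0.85 and −0.75.

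BAX and BAK1 had the highest Pearson's r of the 45 pairs, a pair picked from the same 6 arrays. Both were lowest on knockdown-labelled replicate 1 and highest on control replicate 1, although BAK1 spanned 1.73 log2 units over the 6 arrays and BAX only 0.56. Pearson's r was 0.93 (exact permutation p = 0.0042) and Spearman's rho 0.94 (exact permutation p = 0.0167), 2-sided, over 6 arrays. Adjusted over the 45 pairs among the 10 genes these p-values became 0.189 and 0.5, so neither passed. Without the 2 arrays at the ends, knockdown-labelled replicate 1 and control replicate 1, r was 0.80, and on deviations from the group means it was 0.93. These 2 arrays are also those with the narrowest and the widest spread of signals on the whole array, and the part of that in the relation was not tested.

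Among the BH3-only genes PMAIP1 had the smallest p. It encodes NOXA, which binds mainly MCL1 and promotes its breakdown. Its log2 signal was 4.45, 4.59 and 5.01 in the knockdown-labelled arrays, against 5.48, 5.17 and 5.28 in the control arrays. All 3 knockdown-labelled arrays lay below all controls, with 0.16 log2 units between the groups. The difference was −0.62 ± 0.182 (SE; interval −1.02 to −0.23), which makes the mean signal 1.54-fold higher in the control arrays, with a limma adjusted p of 0.279 and rank 294 of all genes by p. Relative to the median of its signal bin it was −0.52. It stayed between −0.79 and −0.48 in all 15 alternatives, with an adjusted p of 0.0654 at the lowest (array weights). Several of these alternatives cannot change a difference, as set out in the last section.

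Other genes had a pattern over the 6 arrays like that of PMAIP1. The 3 genes most like it, by Pearson's r over the 6 arrays, were IDH3A, a subunit of mitochondrial isocitrate dehydrogenase (r = 0.9995), ZRANB1, a deubiquitinase (r = 0.9987), and HDGFL3, a member of the HDGF family (r = 0.9968). In all 1015 of the 18417 genes had an r above 0.9 with PMAIP1. This r holds the difference between the groups, and no such count was made for other genes. The 3 genes had differences of −0.79, −0.51 and −0.47, none past the threshold (limma adjusted p = 0.229, 0.323 and 0.325).

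BCL2L11, which encodes BIM, a strong activator that binds every pro-survival protein, had a smaller difference. It read 3.785, 3.648 and 3.998 in the knockdown-labelled arrays, against 4.333, 4.075 and 4.002 in the control arrays. The groups were separate by only 0.0048 log2 units, between knockdown-labelled replicate 3 and control replicate 3. The difference was −0.33 ± 0.169 (SE; interval −0.69 to 0.04, limma adjusted p = 0.454), and it changed little with quantile normalization (−0.31) or cyclic loess (−0.32). BCL2L11 and PMAIP1 were the pair with the next highest r over the 6 arrays, with r = 0.91 (exact permutation p = 0.0153) and rho = 0.89 (exact permutation p = 0.0333). Adjusted over the 45 pairs the p-values were 0.344 and 0.5, and r was 0.93 without knockdown-labelled replicate 2 and control replicate 1. Both genes were lower on all 3 knockdown-labelled arrays, so r over the 6 arrays holds the difference between the groups, and r of the deviations from the group means was 0.78.

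BID links death receptors to mitochondria, since caspase-8 cuts it into its active form. It read 5.33, 5.48 and 5.12 in the knockdown-labelled arrays, against 5.71, 5.52 and 5.91 in the control arrays. All 3 knockdown-labelled arrays were below the controls, the nearest by 0.04. The difference was −0.41 ± 0.172 (SE; interval −0.78 to −0.03, limma adjusted p = 0.383), and −0.25 was the median of its signal bin. After quantile normalization it was −0.22 and after cyclic loess −0.20.

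BBC3 encodes PUMA, which like BIM binds every pro-survival protein. It read 5.14, 4.81 and 4.86 in the knockdown-labelled arrays, against 4.95, 5.36 and 5.05 in the control arrays. Knockdown-labelled replicates 2 and 3 lay below all controls and replicate 1 among them. The difference was −0.18 ± 0.174 (SE; interval −0.56 to 0.20, limma adjusted p = 0.686) and shrank to −0.06 after quantile normalization and −0.03 after cyclic loess. Single arrays moved it too, to −0.28 without knockdown-labelled replicate 1 and to −0.06 without control replicate 2.

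BIK was the only 1 of the 10 to read higher in the knockdown-labelled arrays without overlap. BIK sits mainly in the membrane of the endoplasmic reticulum and binds BCL2 and BCL-XL. Its log2 signal was 3.63, 3.71 and 3.84 in the knockdown-labelled arrays, against 3.20, 3.33 and 3.31 in the control arrays. The groups were 0.30 log2 units apart, the widest gap among the 10, and the SDs were small (0.11 in the knockdown-labelled and 0.07 in the control arrays). The difference was 0.44 ± 0.155 (SE; interval 0.11 to 0.78, limma adjusted p = 0.322), a 1.36-fold higher mean signal. It ran from 0.39 to 0.49 over the 14 alternatives that kept the gene, the narrowest range of the 10, and was 0.40 after quantile normalization and after cyclic loess.

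BAD, HRK and BMF overlapped between the groups. BAD, which binds BCL2 and BCL-XL and is held by 14-3-3 proteins when phosphorylated, read 4.70, 4.60 and 4.71 in the knockdown-labelled arrays, against 4.20, 4.71 and 4.39 in the control arrays. Control replicate 2 was slightly higher than every knockdown-labelled array, and the difference was 0.23 ± 0.172 (SE; limma adjusted p = 0.592). It was 0.12 without control replicate 1 and 0.37 without control replicate 2. HRK, known mainly from neurons, read 6.56, 6.37 and 6.23 in the knockdown-labelled arrays, against 5.99, 6.68 and 6.18 in the control arrays. Its control arrays enclosed the other group, the difference was 0.10 ± 0.195 (SE; adjusted p = 0.850), and it ran from −0.04 without control replicate 1 to 0.30 without control replicate 2. After quantile normalization the HRK difference was 0.33 and after cyclic loess 0.37. BMF, which is held at the cytoskeleton through dynein light chain, read 3.71, 4.24 and 3.52 in the knockdown-labelled arrays, against 3.62, 3.81 and 3.78 in the control arrays. Its knockdown-labelled arrays enclosed the controls, the difference was 0.09 ± 0.194 (SE; adjusted p = 0.877), and it ran from −0.12 without knockdown-labelled replicate 2 to 0.24 without knockdown-labelled replicate 3.

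**Figure D2:**
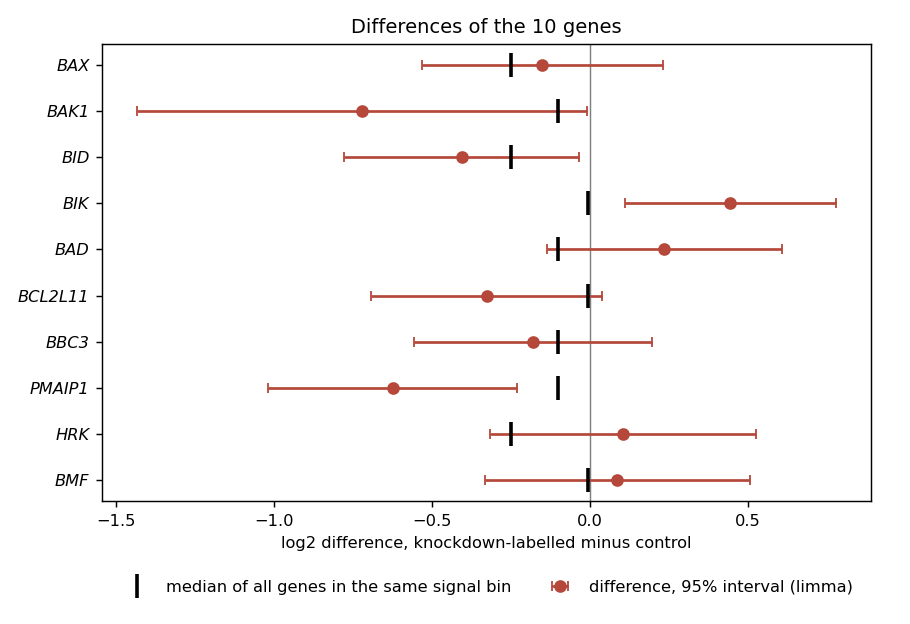
Log2 difference of each gene, knockdown-labelled minus control, with its 95% interval from limma (red) and the median difference of all genes in the same bin of mean signal (black bar). The intervals of PMAIP1, BID and BAK1 lie below 0 and that of BIK above 0, before adjustment over all genes.

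The intervals bound what these arrays could show. For 8 of the 10 genes the interval lay within −1 to 1 on the log2 scale, that is, within a 2-fold change of the signal either way. The exceptions were BAK1 and PMAIP1, whose lower bounds were −1.43 and −1.02. RMA compresses differences of dim probe sets, so these bounds hold for the signal and not for the amount of transcript. An exact permutation test of 3 against 3 arrays cannot give a p below 0.1, which PMAIP1, BID, BCL2L11 and BIK reached. Reaching it means only that the groups did not overlap, which also held for 17% of all genes, so it adds nothing to that count.

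**Figure D3:**
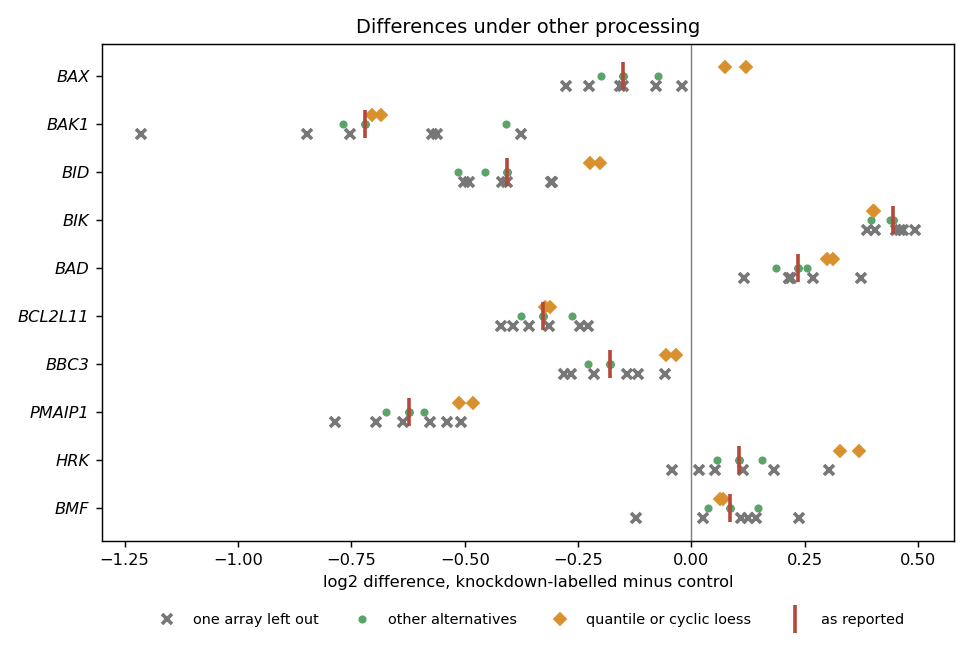
Log2 difference of each gene, knockdown-labelled minus control, as reported (red bar), with 1 array left out (crosses), after quantile normalization or cyclic loess (diamonds) and under the other alternatives (dots). PMAIP1, BID, BCL2L11, BAK1 and BBC3 stay below 0 and BIK and BAD above 0 throughout, and BAK1 has the widest range, −1.21 to −0.38.

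The other genes of the pathway were read beside them from lists, none of which held a gene past the threshold in limma. Of the pro-survival genes 5 of 6 were measured, with 4 below 0 and a median of −0.12. BCL2A1 was the lowest (−0.69, adjusted p = 0.279) and BCL2L10 the highest (0.17). BCL2A1 read 4.500, 4.101 and 4.745 in the knockdown-labelled arrays, against 5.413, 4.997 and 5.007 in the control arrays, with no overlap. MCL1, the main partner of NOXA, had a difference of −0.12 (interval −0.55 to 0.31), and BCL2L1 one of −0.23 (interval −0.64 to 0.19). Of 8 other BCL2-related genes 4 were below 0 and 4 above, from BNIP3, a mitophagy receptor, at −0.61 to BCL2L14 at 0.50.

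Downstream of the pore, 10 of 13 measured genes of caspase activation were below 0, with a median of −0.19. The lowest was DIABLO (−0.61, limma adjusted p = 0.279), which encodes SMAC, the inhibitor of IAP proteins released with cytochrome c, and the highest was the effector caspase gene CASP6 (0.28). DIABLO read 4.40, 4.81 and 4.57 in the knockdown-labelled arrays, against 5.28, 4.97 and 5.37 in the control arrays, without overlap. Of 13 genes for outer membrane proteins or for mitochondrial fission and fusion 12 were below 0, with a median of −0.27. The lowest was MFF (−0.87, interval −1.25 to −0.49, limma adjusted p = 0.19), the receptor of the fission protein DRP1, and the highest MFN1 (0.09), a fusion protein. MFF read 5.50, 5.88 and 5.88 in the knockdown-labelled arrays, against 6.80, 6.42 and 6.64 in the control arrays.

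Of 20 regulators of BH3-only proteins 18 were below 0, with a median of −0.29, from the 14-3-3 gene YWHAZ (−0.45) to the stress kinase homologue TRIB3 (0.18). Most genes of the last 2 lists are bright, and the median of their signal bins was −0.25 for both lists. It was −0.10 for the 10 genes and for each of the other pathway lists. In the brightest bin 85.3% of all genes were below 0, and in the fourth 66.1%. At an unadjusted p under 0.05 in limma, 1 pro-survival, 2 other BCL2-related, 4 caspase activation, 3 outer membrane and 3 regulator genes were lower, and 0, 1, 0, 0 and 0 were higher, where all genes gave 8.38% lower and 3.78% higher.

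**Figure D4:**
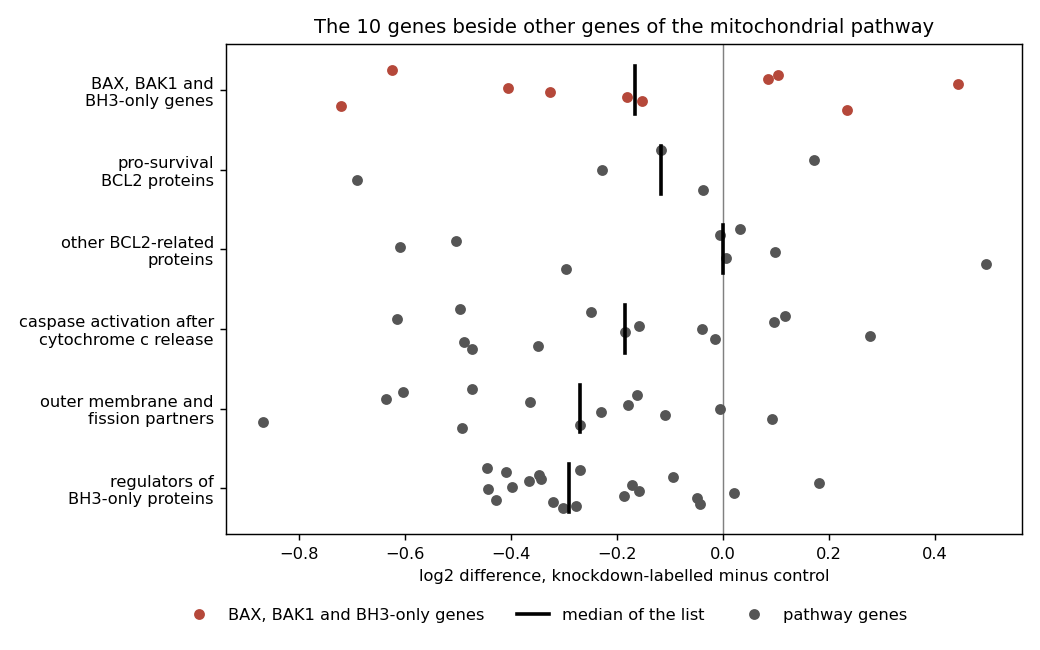
Log2 difference, knockdown-labelled minus control, of the 10 genes (red) and of 5 lists of pathway genes (grey), a point per gene, with the median of each list as a black bar. The medians run from −0.29 for the regulators of BH3-only proteins to 0.00 for other BCL2-related proteins, and no gene shown passed the threshold over all genes.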

How the data were processed

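The values deposited by the authors are log2 signals from RMA (named in the submitters' processing notes); its version is not given in the sources used here, and the log2 scale was taken from the values. The arrays differ in the spread of their values as deposited, and this was left so, while between-array normalization was tried as an alternative. All 6 arrays were used, and 0 columns were left out. Probe sets were named through the platform's annotation table, which can be old: 19460 of 33297 had 1 gene. Where a gene had several, the brightest on average was used, which left 18417 genes. No filter on dim signals was applied, and the values do not show how far a signal lies above background.

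Differences were fitted over all genes with limma 3.58.1 (R 4.3.3; lmFit and eBayes, no covariate, 2-sided, Benjamini-Hochberg over all genes, threshold 0.05), knockdown-labelled minus control. The procedure was first tested on simulated data. Groups came from the sample titles.

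The 10 genes and all lists were chosen with earlier results of these data known. The genes named are the 10, H2AX, the lowest and highest gene of each pathway list (no list held a gene past the threshold), the 3 genes most like the member with the smallest p, MCL1 and BCL2L1 (added after their values were seen), and marker genes where their level is described. The promoter motifs were chosen after the sequences were seen. Promoter windows came from RefSeq (GRCh38.p14), with gene names from the same source. Figures were drawn with matplotlib 3.10.9.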

Additional observations from a re-analysis of the deposited data

How the results depend on the processing

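None of the 10 genes passed the threshold in any of the 15 alternatives (limma), and at an unadjusted p under 0.05, 1 to 3 of them were lower and 0 or 1 higher. With array weights, which called 191 genes in all, the lowest adjusted p among the 10 was 0.0654 (PMAIP1). The median difference of the 10 was −0.17, and 0.003 after quantile normalization and 0.0184 after cyclic loess, −0.25 over the 8 genes left by the filter on dim genes and −0.21 with array medians subtracted. It ran from −0.18 to −0.14 with 1 array left out. Of 148 differences of single genes under the alternatives, 144 kept their sign and 4 turned: BAX after quantile normalization (0.075) and cyclic loess (0.1207), HRK without control replicate 1 (−0.0423) and BMF without knockdown-labelled replicate 2 (−0.1231). Many of the 144 could not turn. The replicate block, the filter on dim genes and an intensity trend with robust variance leave each difference as it is. Averaging or testing all probe sets does too, as each of the 10 genes had 1 probe set. With 1 array left out, HRK ran from −0.0423 to 0.3031 and BMF from −0.1231 to 0.2381. As no gene was called, none had a call to lose. H2AX was never lower, with differences of 0.01 to 0.28. With the replicate number as a block, no difference can change, as each number occurs once in each group. The median (−0.17) and the difference of H2AX (0.10) were therefore the same by design, and only the SE and p could move. The count of the 10 past the threshold was 0, and 3 instead of 6 genes passed among all genes. The arrays share only a number: the deviations of same-numbered arrays from their group means correlated at −0.31, −0.03 and 0.07 across genes, and 1 of 6 arrays correlated best with their own number. The filter on dim genes removed BIK and BMF, and 16 of 9209 genes passed. The count over all genes was 0 after quantile normalization, after cyclic loess, with every probe set tested, and without knockdown-labelled replicates 1 or 2 or control replicates 1 or 3, 1 without control replicate 2, 9 without knockdown-labelled replicate 3, 3 with probe sets averaged and 4 with array medians subtracted (944 to 3611 at an unadjusted p under 0.05 in limma where it was 0); the cause was not tested. The number of arrays limits precision.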
